A study of Mus musculus with 28 samples.

Results

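Mesp1, Mesp2 and Msgn1 are 3 of the 22367 protein-coding genes of the mouse annotation used here, and were chosen by name as the Mesp and mesogenin regulators of early mesoderm. All 3 encode basic helix-loop-helix transcription factors, a class that pairs with E proteins and binds short DNA motifs called E-boxes. Mesp1 is switched on in nascent mesoderm as cells leave the primitive streak and marks the first cardiovascular progenitors. Its neighbour Mesp2 sets segment borders in the presomitic mesoderm, and Msgn1 (mesogenin 1) drives cells of the streak into the presomitic, or paraxial, mesoderm. Brg1 is the ATPase of the BAF chromatin remodelling complexes. Acetylation of histone H3 at lysine 27 (H3K27ac) marks active promoters and enhancers, whereas trimethylation of the same residue (H3K27me3) is laid down by Polycomb repressive complex 2, of which Suz12 is a core subunit.

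The cells were mouse embryonic stem cells taken through embryoid bodies and induced towards mesoderm for 40 h with VEGF, Activin A and BMP4, up to day 4. The labels give one line, Brg1f/f; Actin-CreER, for every sample, in which both Brg1 alleles are floxed and a ubiquitous promoter drives a tamoxifen-inducible Cre. Control cultures received the solvent tetrahydrofuran (THF) alone from day 2, and 4-OHT cultures received 200 nM 4-hydroxytamoxifen in THF, which deletes the floxed alleles during the induction. H3K27ac and Suz12 were measured by ChIP-seq in 2 control and 2 4-OHT replicates each, and H3K27me3 in 3 and 3. The FLAG epitope on Brg1 was measured in 3 replicates of 1 condition, for which the labels give that same line whereas the study's methods name Brg1-FLAG stem cells in duplicate. How far Brg1 was deleted cannot be read from these lists. The cultures are mixtures, so fewer cells carrying a mark and less of it per cell cannot be told apart.

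Each of 17 libraries is known from a list of enriched regions without read counts or scores, so sequencing depth is unknown and the measure used was covered length, the base pairs of a window that lie in listed regions. The H3K27ac lists held 32161 to 41062 regions covering 26.1 to 30.8 Mb. FLAG replicate 3 held 192 regions against 8021 and 8257 in the other replicates, and both H3K27me3 lists numbered 1 were made of narrower regions than the rest, with a median width of 250 bp. Of 6 genes fixed as mesoderm markers, 5 carried H3K27ac within 5 kb of their start site (TSS) in both controls, including T, Mixl1 and Eomes, while Kdr was at 0. Summed over these markers, covered length was 20339 to 28289 bp in control and 15392 to 23539 bp with 4-OHT. Markers fixed for other cell types gave the following. In control, H3K27ac lay at 5 of 6 pluripotency genes in at least 1 list, at Nes of 3 neural genes, at Cxcr4 of 4 endoderm genes and at 2 of 4 cardiomyocyte genes. The sums for pluripotency genes were 16444 to 16892 bp in control and 15119 to 15819 bp with 4-OHT. Of the 5 with the mark, Nanog and Tbx3 were below control in both 4-OHT lists and Klf4 above. Over all genes with the mark 12.6% were below and 39.8% above. The median difference over these 5 was 87.5 bp, so the lower sums were not shared by most of them. The sums for neural genes were 2250 to 3200 bp in control and 2975 to 3625 bp with 4-OHT. Cxcr4 is also expressed in mesoderm and is the whole of the endoderm sum, since Sox17, Foxa2 and Sox7 were at 0 in control. That sum was 1445 to 3320 bp in control and the cardiomyocyte sum 1050 to 1575 bp, and both were 0 in both 4-OHT lists. Pax6, Neurog2, Myh6 and Nppa were also at 0 in control. The part of these cell types in the results below was not tested.

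Mesp1 (ENSMUSG00000030544.5) lies on the minus strand of chromosome 7 at 86937127-86938674 (mm9, GENCODE) and has 2 exons. Mesp2 (ENSMUSG00000030543.8) lies on the plus strand at 86955613-86958317, so the 2 genes point away from each other and their start sites are 16.939 kb apart. Their windows of 50 kb on each side held the same regions in every list and are therefore described as one locus. Msgn1 (ENSMUSG00000047002.1) lies on the minus strand of chromosome 12 at 11215188-11215754, as a single exon that this annotation begins at the start codon. The stretches below carry the results. The first set is the DNA at the centre of the regions near these genes that were Brg1-bound, that is, enriched for FLAG in at least 2 of 3 replicates. They are read on the plus strand from the mm9 reference and cut to 300 bases where longer.
Mesp1 upstream, chr7:86942751-86943050: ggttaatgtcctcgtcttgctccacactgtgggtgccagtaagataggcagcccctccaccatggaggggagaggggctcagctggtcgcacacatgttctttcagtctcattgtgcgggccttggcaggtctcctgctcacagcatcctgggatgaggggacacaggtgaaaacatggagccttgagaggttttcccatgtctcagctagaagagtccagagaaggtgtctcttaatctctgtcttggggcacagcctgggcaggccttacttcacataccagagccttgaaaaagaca
Mesp1 downstream, chr7:86934463-86934762: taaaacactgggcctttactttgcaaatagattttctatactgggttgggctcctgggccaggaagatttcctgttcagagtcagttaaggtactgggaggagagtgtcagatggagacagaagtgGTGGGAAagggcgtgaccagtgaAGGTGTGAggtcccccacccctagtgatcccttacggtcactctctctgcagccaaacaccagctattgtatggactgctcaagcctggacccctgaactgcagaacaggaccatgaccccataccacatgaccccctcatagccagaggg
Msgn1 far upstream, chr12:11239676-11239750: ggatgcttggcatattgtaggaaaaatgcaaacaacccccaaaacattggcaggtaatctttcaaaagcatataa
The second set comes from 3 regions with H3K27ac in both controls and little or none with 4-OHT, also on the plus strand. Each is the centre of the part that the widest pieces of both control lists share. In the first of them this is not the centre of the whole region.
Msgn1 upstream, chr12:11233876-11234175: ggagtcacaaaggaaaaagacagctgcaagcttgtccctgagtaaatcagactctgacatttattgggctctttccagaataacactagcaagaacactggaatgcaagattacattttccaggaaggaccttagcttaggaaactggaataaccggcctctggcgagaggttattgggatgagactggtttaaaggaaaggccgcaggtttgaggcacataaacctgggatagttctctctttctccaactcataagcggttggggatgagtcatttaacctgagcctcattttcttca
Msgn1 nearer upstream, chr12:11231526-11231825: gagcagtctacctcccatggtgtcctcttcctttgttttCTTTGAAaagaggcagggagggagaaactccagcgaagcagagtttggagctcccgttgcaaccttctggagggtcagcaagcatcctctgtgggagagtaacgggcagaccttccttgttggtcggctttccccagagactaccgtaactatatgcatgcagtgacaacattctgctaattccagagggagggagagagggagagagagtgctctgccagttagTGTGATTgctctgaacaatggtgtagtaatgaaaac
Beyond Mesp2, chr7:86963563-86963862: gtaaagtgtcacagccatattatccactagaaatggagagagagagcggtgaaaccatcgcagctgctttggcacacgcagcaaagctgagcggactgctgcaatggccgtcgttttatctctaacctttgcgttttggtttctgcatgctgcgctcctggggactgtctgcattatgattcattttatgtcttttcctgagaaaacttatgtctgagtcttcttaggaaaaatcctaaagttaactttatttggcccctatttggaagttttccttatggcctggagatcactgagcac
The third set is the 250 bases before each annotated start, read along the gene's own strand.
Mesp1 promoter, chr7:86938675-86938924, minus strand: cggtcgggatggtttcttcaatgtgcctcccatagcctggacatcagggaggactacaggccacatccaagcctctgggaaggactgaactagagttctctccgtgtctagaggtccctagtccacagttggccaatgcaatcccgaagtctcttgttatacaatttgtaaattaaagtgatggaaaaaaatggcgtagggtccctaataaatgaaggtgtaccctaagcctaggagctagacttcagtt
Mesp2 promoter, chr7:86955363-86955612, plus strand: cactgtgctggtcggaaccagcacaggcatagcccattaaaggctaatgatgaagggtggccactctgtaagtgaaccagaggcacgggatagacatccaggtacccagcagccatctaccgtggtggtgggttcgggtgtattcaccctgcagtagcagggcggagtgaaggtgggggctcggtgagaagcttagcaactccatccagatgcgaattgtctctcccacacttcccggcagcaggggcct
Msgn1 promoter, chr12:11215755-11216004, minus strand: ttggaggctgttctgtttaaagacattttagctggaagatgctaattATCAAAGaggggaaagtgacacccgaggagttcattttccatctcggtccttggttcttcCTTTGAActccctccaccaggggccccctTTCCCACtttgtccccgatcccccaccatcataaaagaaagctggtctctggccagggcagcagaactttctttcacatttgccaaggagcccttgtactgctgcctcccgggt

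Capitals mark exact matches, on either strand, to motifs of factor families that act in the streak, each searched as fixed letters. The T-box string was AGGTGTNA. Tcf/Lef was searched as CTTTGAA. It was also searched as CTTTGAT. The RBPJ string was GTGGGAA. For GATA it was AGATAAG. For Fox factors it was TGTTTAC. For Foxh1 it was AATCACA. The Msgn1 promoter held 2 Tcf/Lef matches, 1 of each string, and 1 RBPJ match. Tcf/Lef factors carry the Wnt signal to DNA and RBPJ the Notch signal. Among the 32851 promoter windows of 250 bases from RefSeq (GRCm38.p6), 4.46% held CTTTGAA, 3.21% held CTTTGAT and 5.42% held GTGGGAA. The Mesp1 and Mesp2 windows held none of these strings. RefSeq begins Mesp1 198 bp further into the gene than GENCODE does, and the 250 bases before that start, not printed here because GENCODE places most of them in the first exon, held 1 match to each Tcf/Lef string. For Mesp2 and Msgn1 the starts were the same in both annotations.

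Of the Brg1-bound stretches, the one downstream of Mesp1 held an RBPJ match and, further on, a T-box match that reads AGGTGTGA in full, and the other 2 held no marked motif. T-box factors such as T, Eomes and Tbx6 act upstream of all 3 genes in the embryo. In windows of 300 bases at the centre of all 2390 Brg1-bound regions, 4.85% held the T-box string, 1.76% its full form and 6.95% the RBPJ string. The nearer stretch upstream of Msgn1 held 1 Tcf/Lef match, to CTTTGAA, and 1 Foxh1 match, as did 6.33% and 4.19% of equal windows in the 26307 H3K27ac regions of both control lists. The further one and the stretch beyond Mesp2 held no marked motif. E-boxes, written CANNTG and left in lower case, were matched 3 times in the Mesp1 upstream stretch, 2 times in the downstream one and once in each promoter. The further stretch upstream of Msgn1 and the stretch beyond Mesp2 held 1 match each. E-boxes are common, since 77.9% of the Brg1-bound windows, 71.8% of the H3K27ac windows and 66.2% of promoters held one. The forms CATATG and CACCTG, which CANNTG includes, gave 1 match in the printed stretches, a CACCTG upstream of Mesp1, and the unprinted window before the RefSeq start of Mesp1 held another CACCTG. A match to letters is a description and does not show that a factor binds.

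Brg1 was found on both sides of Mesp1, and the FLAG lists gave much less at Mesp2 and Msgn1. The region upstream of Mesp1, chr7:86942251-86943525, has its nearest edge 3.58 kb from the start site, in the intergenic interval shared with Mesp2. It covered 1150 bp in FLAG replicate 1, 1275 bp in replicate 2 and 0 in replicate 3. Only 26 of all 2390 Brg1-bound regions, 1.09%, were as wide or wider, and the median was 275 bp. The region downstream of Mesp1, chr7:86934426-86934825, lies 4.05 kb from the start site by its centre, beyond the 3′ end of the gene, and covered 375, 400 and 0 bp. Mesp1 thus had 2 Brg1-bound regions within 5 kb, which 67 protein-coding genes, 0.300%, did, while 472 genes, 2.11%, had at least 1.

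Around Msgn1 the one Brg1-bound region, chr12:11239676-11239750, lies 24.0 kb upstream and was among the narrowest, with 75 bp in FLAG replicate 1, 50 bp in replicate 2 and 0 in replicate 3. It is the only one of the 3 that was not called when FLAG regions under 100 bp were left out. It lies in an intergenic stretch beyond 1700034J04Rik, and 99.2% of Brg1-bound regions were as wide or wider. Within 50 kb, 2085 genes, 9.32%, had at least 1 such region. A further 7 FLAG regions near these genes came from 1 replicate each and are not counted as bound. Among them, replicate 1 listed 200 bp at chr7:86955251-86955450, 0.163 kb before the Mesp2 start and running into the promoter stretch printed above. Replicate 2 listed 75 bp in the first exon of Mesp1 and 200 bp at each of chr12:11184651-11184850 and chr12:11203551-11203750, downstream of Msgn1. FLAG replicate 3 listed nothing within 50 kb of these genes, so every bound call here rests on replicates 1 and 2.

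**Figure D1:**
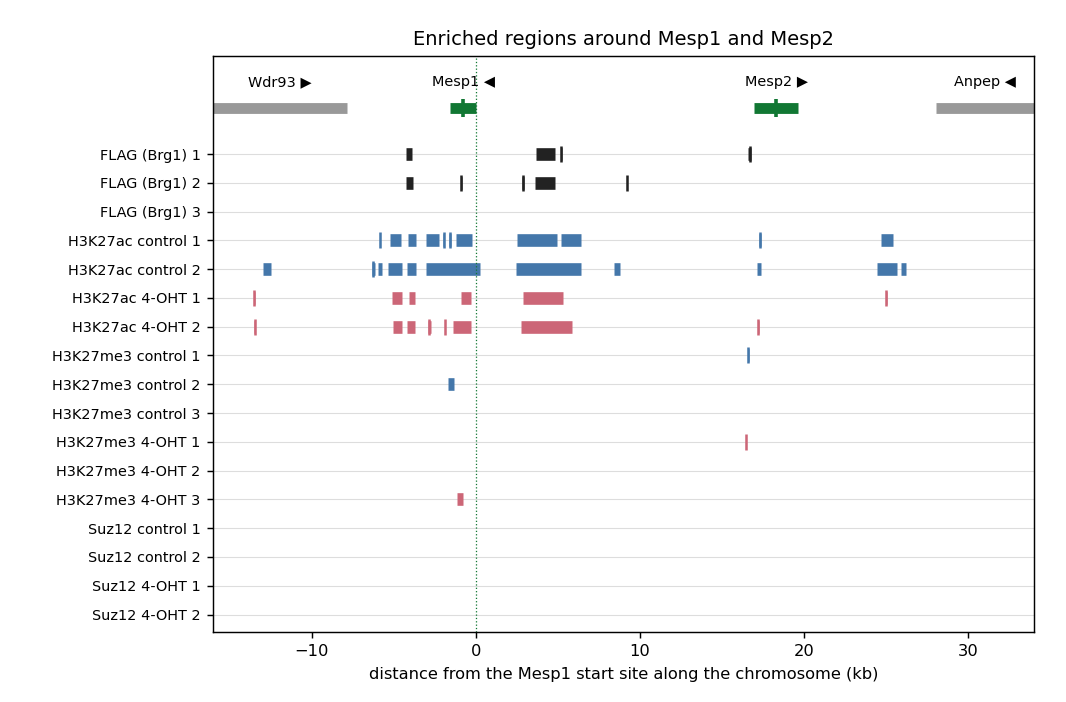
Regions in each of the 17 lists around Mesp1 and Mesp2, by distance in kb from the Mesp1 start site along the chromosome, so that upstream of Mesp1 is to the right. Black bars are FLAG, blue control and red 4-OHT, grey and green bars are genes with arrows for their direction, and narrow regions are widened to a tick. FLAG replicates 1 and 2 share a region on each side of Mesp1, H3K27ac is shorter in both 4-OHT lists than in both controls, and Suz12 is absent.

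**Figure D2:**
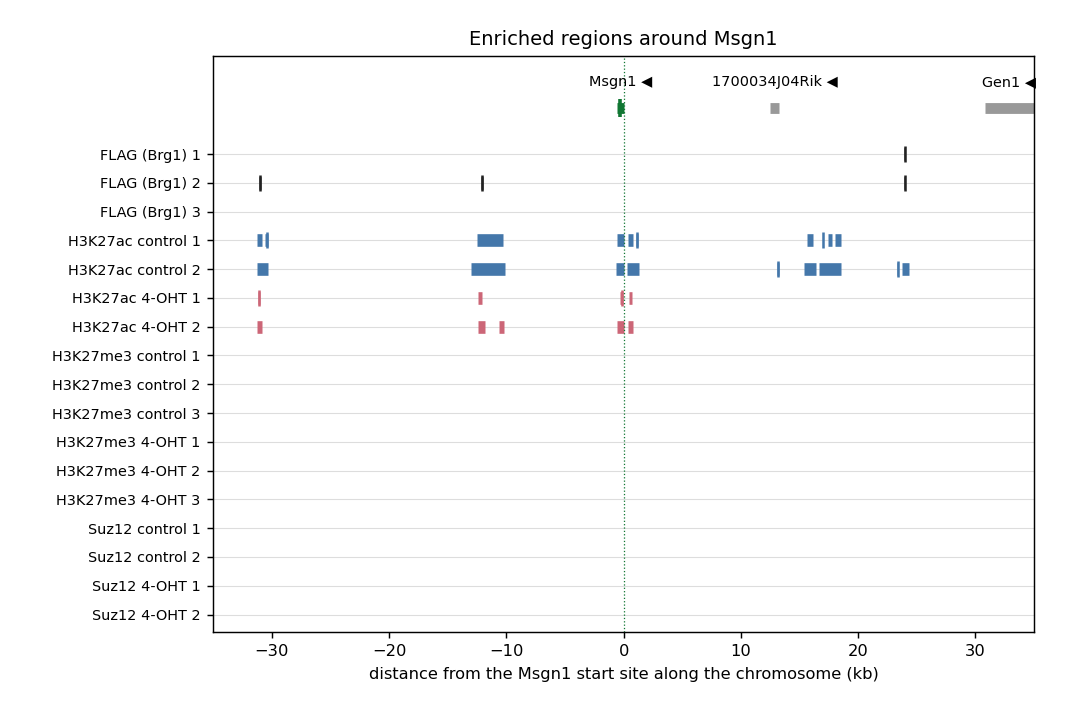
The same for Msgn1, with distance in kb from its start site and upstream to the right. The H3K27ac regions between 15 and 25 kb upstream are in control lists and in no 4-OHT list, while those at the gene and downstream of it are in all 4 lists.

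H3K27ac near all 3 genes covered less in each 4-OHT list than in each control list. The wide window held 7500 and 11600 bp in the controls and 4075 and 5550 bp with 4-OHT at the Mesp1 and Mesp2 locus. Around Msgn1 it held 5350 and 9200 bp in the controls and 925 and 2300 bp with 4-OHT. Control and 4-OHT values did not overlap at either locus, and in each condition replicate 2 was the higher list. Without control replicate 2 the 4-OHT minus control difference was -2687.5 bp at the Mesp locus and -3737.5 bp at Msgn1, in place of -4737.5 and -5662.5 bp. The means were 9550 ± 2899 bp and 4812.5 ± 1043 bp (SD, n = 2 and 2) at the Mesp locus, a ratio of 0.504. They were 7275 ± 2722 bp and 1612.5 ± 972 bp at Msgn1, a ratio of 0.222. Two-sided exact permutation tests gave p = 0.33 for each, the smallest that 2 against 2 replicates allow, and 1 after Benjamini-Hochberg adjustment over 27 tests, so no difference here could pass a threshold.

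Most genes did not share this direction. Of 17242 genes with H3K27ac within 50 kb, 20% had both 4-OHT lists below both controls, and 39.7% had them above. The median ratio of 4-OHT to control over genes was 1.09. Of 16816 genes with H3K27ac there in control, 7.55% had a ratio at or below that of Msgn1 and 11.9% one at or below that of the Mesp locus. In base pairs, 51 genes had a difference as low as that at Msgn1 or lower, and 89 as low as that of the Mesp locus.

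**Figure D3:**
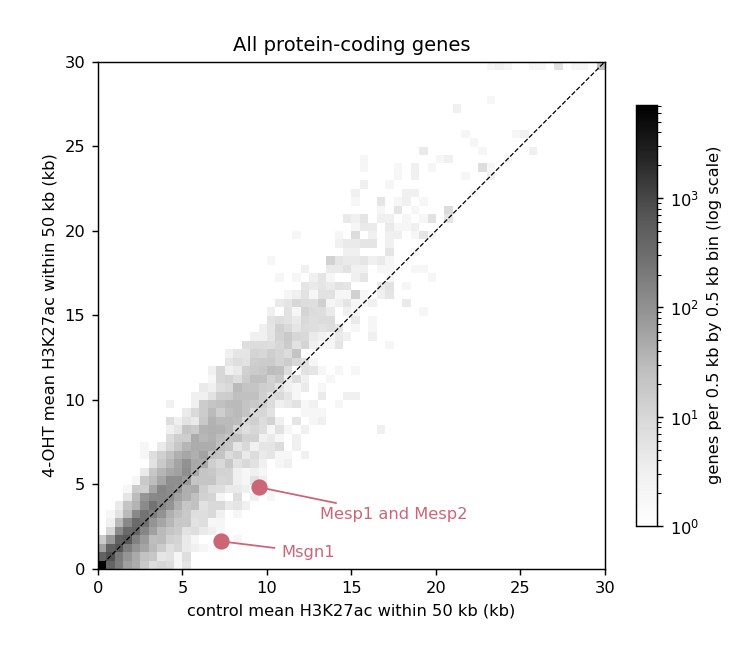
Mean H3K27ac covered length within 50 kb of the TSS in control (x, kb) against 4-OHT (y, kb) for all protein-coding genes, shaded by the number of genes in each bin on a log scale, with values above 30 kb drawn in the last bin. The red points are the Mesp locus at means of 9550 and 4812.5 bp and Msgn1 at 7275 and 1612.5 bp, both below the dashed line of equal length. The median ratio of 4-OHT to control over genes is 1.09.

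Nearer the start sites the 3 genes differed in level. Within 5 kb, Mesp1 had 5227 and 6876 bp in control and 3576 and 4551 bp with 4-OHT. The control mean of 6051.5 ± 1166 bp was above that of 98.8% of the 12031 genes with H3K27ac in this window, and the ratio was 0.671. Msgn1 had 1125 and 1700 bp in control and 450 and 975 bp with 4-OHT, a ratio of 0.504, and its control mean was above that of 58.7% of genes. Mesp2 had 125 and 250 bp in control and 0 and 75 bp with 4-OHT, a ratio of 0.200, with a control mean above that of 12.7% of genes. The order in control was Mesp1, Msgn1, Mesp2, with no overlap between genes in the 2 control lists.

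All 3 genes had both 4-OHT lists below both controls, where 12.6% of genes did and 39.8% had them above. Each exact permutation p was 0.33 and each adjusted p was 1. The median ratio over genes was 1.10, and 10.7% of genes had a ratio at or below that of Mesp1, 8.28% that of Msgn1 and 6.01% that of Mesp2. The values of Mesp2 amount to a single region in 3 of 4 lists, and with regions under 200 bp left out they became 0 and 250 bp in control and 0 in both 4-OHT lists. With that same filter Msgn1 had 975 and 1700 bp in control against 450 and 975 bp, so that its conditions met. Within the transcribed part, Mesp1 had 999 and 1548 bp in control and 575 and 1125 bp with 4-OHT, which overlap. The body of Msgn1, 567 bp long, was covered over 529 and 567 bp in control and 200 and 525 bp with 4-OHT, and with the lists scaled to equal total length these values overlapped.

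**Figure D4:**
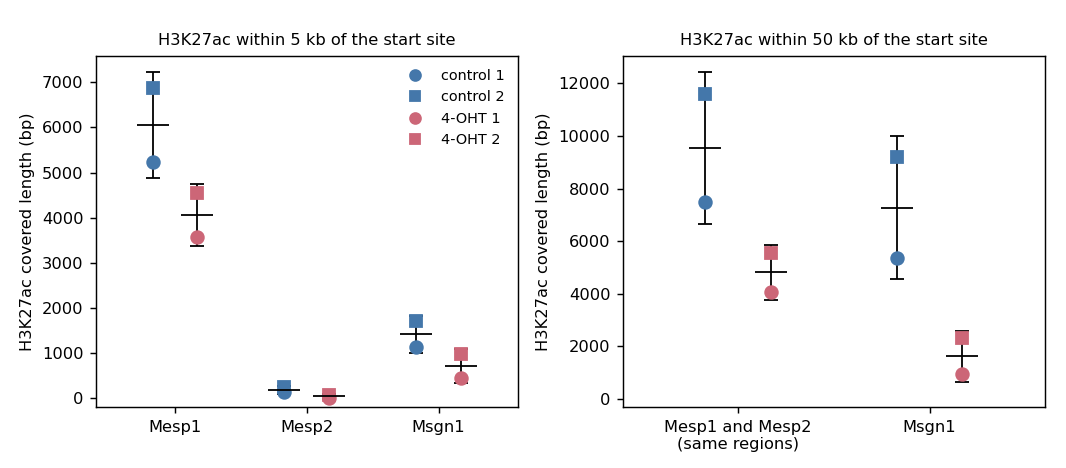
H3K27ac covered length in bp within 5 kb (left) and 50 kb (right) of the start site in each replicate, circles for replicate 1 and squares for replicate 2, with mean and SD as black lines (n = 2 per condition). Both 4-OHT values are below both control values for each gene, and the SDs are wide beside a difference resting on 2 lists a side.

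Region by region, the Mesp locus held 12 merged H3K27ac regions and the Msgn1 locus 9. Of these, 7 and 6 were in both control lists. Both 4-OHT lists covered less than both controls in 6 of the 7 and in 6 of the 6, and more in none. A region had to be in both control lists to be counted, which favours a loss over a gain with 4-OHT. The genome shares below carry the same condition. Regions whose edge lay within 2.5 kb of any start site are called promoter regions and the rest distal. All 6 promoter regions were shorter in this way, against 19.8% of 12666 such regions in the genome. Of the distal regions 6 of 7 were, against 60% of 13641. The promoter regions include the one 2.45 kb upstream of Mesp1, whose centre lies 4.44 kb away. They also include a region near the start of 1700034J04Rik, centred 15.9 kb from the Msgn1 start. In neither 4-OHT list were 1 of the 6, the region near 1700034J04Rik, and 2 of the 7, against 6.47% and 34.1%. Neighbouring regions of 1 locus are not independent of each other.

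The Mesp1 gene lay in the merged region chr7:86935651-86938925, which spans its promoter, both exons and the adjoining 3′ flank in control replicate 2 only. It took up 1875 and 3275 bp in the controls but 575 and 1325 bp in the 4-OHT lists, a ratio of 0.369. With 4-OHT the longest listed piece in each replicate lay inside the gene, at 86937776-86938350 in replicate 1 and 86937276-86938400 in replicate 2. In control replicate 2 the whole was 1 unbroken region and in control replicate 1 it was 4 pieces. The longest of these 4, at 86937476-86938425, also lay inside the gene. The pieces of control replicate 1 ended before the annotated start, as did those of both 4-OHT lists.

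The region upstream, chr7:86941126-86945100, which contains the wider Brg1-bound region, took up 3625 and 3975 bp in the controls against 2450 and 3075 bp with 4-OHT, a ratio of 0.727. The 1275 bp of the Brg1-bound part were covered in full in all 4 lists, so that covered length was at its ceiling there and could not show a difference in signal. On the side facing Mesp1 the controls covered 1100 and 1125 bp and the 4-OHT lists 700 and 825 bp. On the side facing Mesp2 they covered 1250 and 1575 bp and 475 and 975 bp. In the flanks, where the length could vary, both 4-OHT lists were below both controls. The split at the edges of the bound region was chosen after the lists were seen and was not tested.

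The Brg1-bound region downstream of Mesp1 lies in the H3K27ac region chr7:86934451-86935025, with 475 and 575 bp in control and 375 and 500 bp with 4-OHT, which overlap. Beside it, chr7:86933351-86934175 had 650 and 800 bp in control and 600 and 525 bp with 4-OHT, a ratio of 0.776. Neither H3K27ac region that held Brg1 at this locus was missing with 4-OHT. Over the genome 21.2% of 1505 control regions holding a Brg1-bound region and 20.8% of 24802 without one were in neither 4-OHT list. Both 4-OHT lists were shorter in 69.6% and 38.9%.

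Mesp2 itself had 1 small region, chr7:86955801-86956050, in its first exon, with 125 and 250 bp in control and 0 and 75 bp with 4-OHT. The 200 bp of FLAG enrichment before its start in replicate 1 had no H3K27ac in any list. A wider region lay 8.09 kb downstream of the Mesp2 start, at chr7:86963101-86964300, intergenic between Mesp2 and Anpep. The controls listed 725 and 1200 bp there, against 50 and 0 bp with 4-OHT, a ratio of 0.0260. It held no FLAG region in any replicate. The one region of this locus that was in both controls and in neither 4-OHT list, chr7:86932726-86932975, downstream of Mesp1, was narrow, at 25 and 250 bp in control. The sole H3K27ac seen with 4-OHT and in no control was 25 and 50 bp in an intron of Wdr93, 13.5 kb downstream of Mesp1.

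At Msgn1 the mark formed 3 blocks, and they stood differently with 4-OHT. Over the gene and its first 2 kb upstream, the 2 regions chr12:11215126-11215825 and chr12:11216051-11217050 had 1125 and 1700 bp in control and 450 and 975 bp with 4-OHT. Downstream, chr12:11202726-11205675, centred 11.6 kb from the start, had 2225 and 2950 bp in control and 300 and 925 bp with 4-OHT, a ratio of 0.237. Further on, 30.8 kb downstream, chr12:11184476-11185400 had 650 and 925 bp and 175 and 400 bp. Both hold a FLAG region of replicate 2 alone.

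Further upstream than 2 kb, the controls covered 1350 and 3625 bp and both 4-OHT lists 0. This block contains chr12:11231151-11232150, with 500 and 1000 bp in control, and chr12:11232451-11234325, with 850 and 1875 bp, centred 15.9 and 17.6 kb from the Msgn1 start. The first lies within 2.5 kb of the start of 1700034J04Rik, the gene between this block and Msgn1. The Brg1-bound region at 24.0 kb lies in an H3K27ac region of 525 bp that was in control replicate 2 only. No region of both controls at this locus held a Brg1-bound region. The blocks were drawn after the lists were seen, and the lists do not show which gene a distal region serves.

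**Figure D5:**
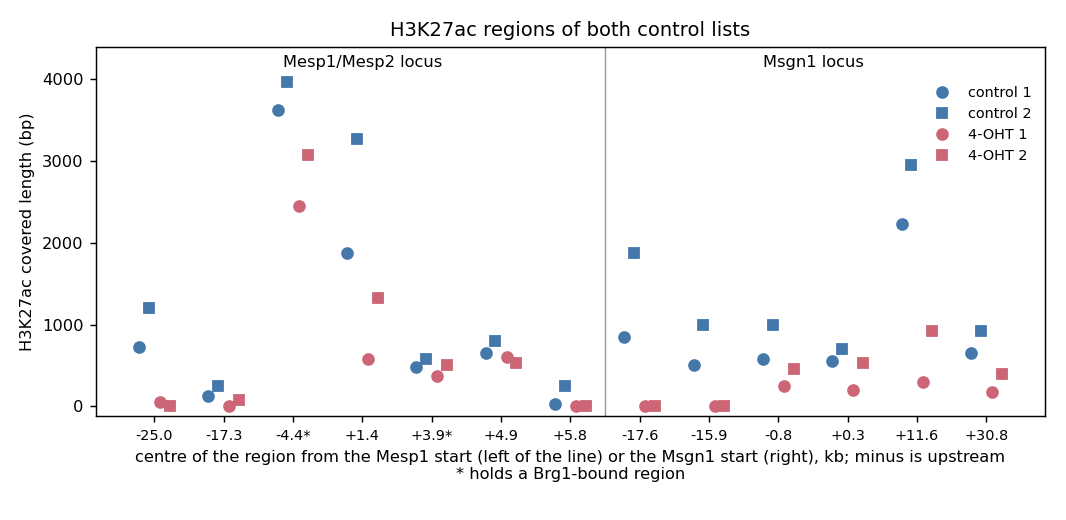
H3K27ac covered length in bp in each replicate for the 13 regions present in both control lists, ordered by the position of their centre in kb from the Mesp1 start (left of the line) or the Msgn1 start (right), with upstream negative and an asterisk for regions holding a Brg1-bound region. The 4-OHT values are lower in 12 of the 13, and are at 0 in both lists at 3 of them. Choosing regions by the control lists favours lower 4-OHT values.

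The Polycomb marks were nearly absent. No Suz12 region lay within 50 kb of any of the 3 genes in any of 4 lists. Over all genes with Suz12 within 50 kb, 30.1% had both 4-OHT lists above both controls and 5.47% below. The nearest region to Mesp1 was 247.949 to 248.474 kb away in every list. The nearest to Msgn1 was 1624 and 1626 kb away in the controls and 58.329 and 58.354 kb with 4-OHT, where both lists gave a region of 1075 and 750 bp downstream of the gene. For comparison, 32.1% of 2290 genes with Suz12 within 5 kb had both 4-OHT lists above both controls and 5.76% below, or 702 and 305 genes with the lists scaled to equal total length.

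H3K27me3 was absent within 50 kb of Msgn1 in all 6 lists, the nearest region being 55.8 to 56.6 kb away. Of genes with H3K27me3 in that window, 15.5% had every 4-OHT list below every control and 0.164% above. At Mesp1 it was listed at the gene in 1 of 3 controls, with 375 bp at chr7:86936951-86937325, and in 1 of 3 4-OHT lists, with 350 bp at chr7:86937526-86937875, and the others were at 0. Before Mesp2 it was listed in control replicate 1 with 100 bp and in 4-OHT replicate 1 with 50 bp, and the others were at 0. Within 5 kb of Mesp1 the means were 125 ± 217 bp in control and 117 ± 202 bp with 4-OHT (SD, n = 3 and 3, exact permutation p = 1, with 0.1 the smallest possible). No gain of H3K27me3 over either Mesp gene was detectable in these lists. Of 4204 genes with H3K27me3 in this window, 12% had every 4-OHT list below every control and 0.19% above, or 244 and 207 genes after scaling to equal total length.

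Genes known to act upstream of the 3 were found both below and above control in H3K27ac within 5 kb. Of 14 fixed upstream activators 12 carried the mark, with 4 below control in both 4-OHT lists and 3 above, where 12.6% of all genes with the mark were below and 39.8% above. Their median difference was -343 bp beside 112.5 bp over all genes with the mark. Below were T, the Brachyury factor, with 2188 and 2563 bp in control and 1588 and 1988 bp with 4-OHT, and Wnt3, a streak ligand, with 4625 and 7300 bp and 3950 and 3875 bp. Lef1, a nuclear partner of beta-catenin, had 5650 and 6125 bp and 2850 and 5250 bp, and Tcf7, another, had 1450 and 1775 bp and 1250 and 1000 bp. Above were Rbpj, with 300 and 0 bp and 1175 and 975 bp, Ctnnb1, which encodes beta-catenin, and Smad2, the Nodal signal transducer. The values of Eomes, 5050 and 6875 bp in control and 2825 and 5275 bp with 4-OHT, overlapped, as did those of Tbx6, at 6376 and 7901 bp and 5704 and 8001 bp. Suz12 was above control at 5 of the 6 genes of this list that had any and below at none, where 32.1% of all genes with Suz12 were above and 5.76% below. The difference was largest at the Notch ligand gene Dll1, with 0 in both controls and 875 and 950 bp with 4-OHT.

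Of 16 genes of the paraxial mesoderm and segmentation, where Mesp2 and Msgn1 act, 10 carried H3K27ac and 7 of these were below control in both 4-OHT lists, with 2 above, beside the 12.6% and 39.8% of all genes. Suz12 was above at 4 and below at 2 of the 9 that had any, beside 32.1% and 5.76% of all genes with Suz12. The median H3K27ac difference was -362.5 bp. Nrarp, a feedback regulator of Notch, had 3728 and 3851 bp in control and 2000 and 1675 bp with 4-OHT. Pcdh8, a protocadherin of the segmenting mesoderm, had 2025 and 1800 bp and 0 and 50 bp. The Notch ligand gene Dll3 had 2950 and 3375 bp and 2550 and 2775 bp, and the Notch modifier gene Lfng 150 and 700 bp and 0 and 75 bp. Ripply1, a repressor partner that ends Mesp2 activity in the embryo, had 200 and 575 bp in control and 0 in both 4-OHT lists. Above were the growth factor gene Fgf8, with 5671 and 6721 bp and 6821 and 6921 bp, and Hes7, the segmentation clock repressor, with 1281 and 1231 bp and 1556 and 1506 bp.

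Of 19 genes known downstream of Mesp1 in the cardiac mesoderm, 13 carried H3K27ac, with 2 below and 3 above, and a median difference of -87.5 bp. The 2 of 13 below are near the 12.6% of all genes, of which 39.8% were above. Suz12 was above at 3 and below at 1 of 13, where 32.1% of all genes with Suz12 were above and 5.76% below. The 2 below were Snai1 and Cxcr4. Snai1, a repressor of epithelial genes, had 4995 and 6370 bp in control and 3220 and 3720 bp with 4-OHT. Cxcr4, a chemokine receptor gene, had 1445 and 3320 bp and 0 in both. The 3 above, Gata4, Myocd and Ets2, covered at most 1350 bp. Pdgfra, which marks paraxial and cardiac mesoderm, had 4475 and 7825 bp and 3125 and 5350 bp, which overlap. These lists were chosen with earlier results of the same data known, and the counts are descriptions.

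Over all 17 lists, the genes most like Mesp1 in covered length within 5 kb were Aplnr, Arl4d and Cdc42ep4, with mean absolute differences of 242, 269 and 271 bp per list. Aplnr, the apelin receptor gene, had 5359 and 7451 bp of H3K27ac in control and 2784 and 4809 bp with 4-OHT. It had FLAG regions in 2 lists, as Mesp1 did, and Cdc42ep4 had them in 3. None of these 3 genes had H3K27me3 or Suz12, whereas Mesp1 had H3K27me3 in control replicate 2 and 4-OHT replicate 3. The likeness in every mark follows from the choice of these genes over the same lists. Those most like Msgn1 were Rftn1, Hdac7 and Rnpep, at 29.4, 37.2 and 38.2 bp. None of them had FLAG or Polycomb regions in the window. Those nearest to Mesp2, Chac2, Hrg and Entpd7, say little, since 10538 genes differed from it by at most 100 bp, against 1023 for Msgn1 and 0 for Mesp1.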

How the data were processed

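Day 4 mesoderm cultures were profiled in 28 ChIP-seq samples, 11 of them inputs that have no list here. For H3K27ac and Suz12 the labels give fewer inputs than replicates in each condition, so replicates of a condition may share an input. Whether this moved the lists was not tested. The authors deposited 17 lists of positions (chromosome, start and end on a grid of 25 bp), with no other value per region. Reads had been aligned to mm9 with Bowtie (versions not given in the sources used here), and regions called for each replicate over input with a Poissonian model at 1e-06 for FLAG and 1e-12 otherwise.

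Covered length was summed within 5 kb and 50 kb of the most 5′ GENCODE start site (mm9) and in the gene body, under the groups and replicate numbers of the labels. Conditions were compared by two-sided exact permutation tests over replicates, adjusted by the Benjamini-Hochberg method over 27 tests. No score enters, so differences in sequencing depth or ChIP yield move covered length directly, and a region just under the threshold counts as 0. The labels call the replicates biological. Genes named were the 3 members, neighbours within 2.5 kb of a region, the 3 most alike genes per member, and list genes whose conditions did not overlap, at most 6 per list and mark. Eomes, Tbx6, Pdgfra, Smad2, Hes7 and some marker genes were named besides, after their values were seen. Members and lists were chosen with earlier results of these data known. Of 4 neural markers 3 matched the annotation. Sequences came from mm9 and, for the promoter shares, RefSeq.

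Same-numbered H3K27me3 control and 4-OHT replicates deviated together (correlations 0.908, 0.819 and 0.763 over 4204 genes). Differently numbered replicates are not compared here, and both lists numbered 1 were made of narrower regions than the rest. Whether the numbers pair was therefore not settled. The calculations were tested on simulated regions: covered length was right in 60 of 60 windows, and 200 of 200 genes with lowered simulated H3K27ac were called among 2000. The simulated replicates differed less than those of the Mesp locus, and unchanged genes called lower are not counted here. The simulation checks the calculation and gives no error rate for the real lists. Whether smaller or more variable differences would be called was not tested. The 200 of 200 is therefore no measure of how many real differences are found. Calculations ran in Python 3.11.15 with NumPy 2.4.6 and SciPy 1.17.1, and plots in Matplotlib 3.10.9.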

Additional observations from a re-analysis of the deposited data

How the results depend on the processing

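H3K27ac covered length at Mesp1, Mesp2 and Msgn1 kept its direction in all 3 windows with regions of at least 200 bp, joining within 1 kb, equal numbers of regions, scaling to equal total length, other windows and each replicate left out. Its size varied more. With 1 replicate left out, 4-OHT minus control ran from -6787.5 to -2687.5 bp within 50 kb of the Mesp genes and from -7587.5 to -3737.5 bp at Msgn1, in each case from without control replicate 1 to without control replicate 2. Within 5 kb it ran over the same replicates from -2812.5 to -1163.5 bp at Mesp1, -212.5 to -87.5 bp at Mesp2, as in its body, and -987.5 to -412.5 bp at Msgn1. In the body of Mesp1 it ran from -698.5 to -148.5 bp and in that of Msgn1 from -348 to -23 bp, in each case from without 4-OHT replicate 2 to without 4-OHT replicate 1. The conditions came to overlap within 5 kb of Mesp2 and Msgn1 and in the Mesp2 body with regions of at least 200 bp, and in the Msgn1 body with joining or scaling. Each gene has 1 annotated start, so using every start changed nothing, and the replicate block leaves the difference as it is. The smallest p of the block is 0.5 with 2 pairs and 0.25 with 3, so no block p could pass a threshold. For H3K27ac and Suz12 the correlations of same-numbered replicates were lower than for H3K27me3, at 0.440 and 0.505, and whether the numbers pair was not settled for any mark.

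The Brg1-bound regions near the 3 genes numbered 10 with any 1 of 3 FLAG replicates, and 0 to 3 with each left out, being 0 without replicate 1 or replicate 2, and 2 with FLAG regions of at least 100 bp, which leaves none at Msgn1. For H3K27me3, where 2 of 6 lists hold all that lies within 5 kb of either Mesp gene, 4-OHT minus control turned to 33.4 bp within 5 kb of Mesp1 and to 29.5 bp within 50 kb of both Mesp genes when scaled. With each replicate left out it ran from -125 to 117 bp within 5 kb of Mesp1, -133 to 83.3 bp within 50 kb, -66.3 to 117 bp in the Mesp1 body (main value 50.3 bp) and -33.3 to 16.7 bp within 5 kb of Mesp2. The last was 0 with regions of at least 200 bp, with equal numbers of regions, and with both lists numbered 1 left out, an alternative chosen after the data were seen. Within 100 kb of Msgn1 the differences were 158 bp of H3K27me3 and 912.5 bp of Suz12 (exact permutation p = 0.6 and 0.33).

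Over all genes within 5 kb, H3K27me3 was below in 504 and above in 8, which became 244 and 207 after scaling and 1852 and 34 under the replicate block. Suz12 was below in 132, and 305 and 280 in the same order. The cause of these shifts was not tested. Depth is unknown and limits every value.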
